A study of Mus musculus with 8 samples.

Results

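The nuclear genes for the respiratory chain were followed in mouse plasmablasts that lacked Jagn1 and in control plasmablasts. Genes were taken by symbol: those that begin with Ndufa, Ndufb, Ndufc, Ndufs or Ndufv and a digit, the succinate dehydrogenase genes Sdha to Sdhd, and those that begin with Uqcr, with Cox and a digit from 4 to 8, or with Atp5, together with Cyc1 and Cycs. This rule took 86 of the 24413 gene symbols in the count tables. By the complex that each product belongs to, 35 encode subunits of complex I, 4 of complex II, 9 of complex III, 20 of complex IV and 15 of complex V, and 1 encodes cytochrome c. Ndufa4 and Ndufa4l2, which carry complex I names, were counted with complex IV. Atp5s and Atp5sl share the Atp5 name and were counted with no complex.

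The cells began as splenic B220+ B cells of C57BL/6J mice. They were kept for 4 days in 25 µg/ml of lipopolysaccharide (LPS), a bacterial product that activates B cells, and were then sorted as CD22-CD138+ plasmablasts. In the 4 knockout libraries the genotype was Jagn1fl/fl Mb1Cre+, in which Cre is expressed from the B cell gene Cd79a and deletes Jagn1, a gene for an endoplasmic reticulum membrane protein, in the B lineage. The 4 control libraries are labelled Jagn1fl/fl, with the same floxed alleles, strain, culture and sort, and no library carried Mb1-Cre without the floxed alleles or received no LPS. The series gives 4 mice per genotype, and the sex and age of the mice were not given in the sources used here.

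The respiratory chain passes electrons from NADH (through complex I) and succinate (through complex II) to coenzyme Q, then through complex III and the small carrier protein cytochrome c to complex IV, which reduces oxygen. Complexes I, III and IV pump protons out of the mitochondrial matrix, and complex V, the ATP synthase, uses their return to make ATP. Most subunits are encoded in the nucleus and a few core subunits of complexes I, III, IV and V in mitochondrial DNA. Some nuclear subunits of complex IV exist in tissue-type forms, such as Cox6a2, Cox7a1 and Cox8b in heart and skeletal muscle, in place of the widely expressed Cox6a1, Cox7a2 and Cox8a. Plasmablasts need ATP for antibody synthesis and folding, and respiration is known to increase as B cells become antibody-secreting cells.

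RNA was counted with a 3′ tag kit, which gives about 1 read per transcript end, so that counts were not divided by length. Totals ran from 5882912 to 10066661 counts per library. The respiratory chain genes together took between 1.47% and 1.86% of the counts in the control libraries and between 1.52% and 1.64% in the knockout libraries. Jagn1 gave 19, 35, 16 and 99 counts in controls 1 to 4 and 2, 1, 1 and 1 in knockouts 1 to 4; which exons were deleted, and so whether a 3′ tag reports them, is not known here. Plasmablast markers summed to between 26886 and 33992 CPM (read counts scaled to a common library total, as in every CPM value here) in the controls and between 21015 and 27023 CPM in the knockouts, and B cell markers to between 908 and 1173 CPM and between 844 and 962 CPM. Of the 8 plasmablast markers Sdc1, Jchain, Tnfrsf17 and Slamf7 were called lower in the knockout, where 3.19% of all tested genes were called lower. Among the 9 B cell markers Cd79a was called lower, and no other one tested was called in either direction. Cd79a is also the gene from which Cre is expressed in the knockout libraries, and the part of the Cre allele in its fall was not tested. Markers of T or NK cells summed to 7.10 to 9.83 CPM in the controls and 3.13 to 5.50 CPM in the knockouts, with 1 of 7 at 0 in every library, and the part of these lists in the results was not tested. Of the macrophage or granulocyte markers 5 of 8, and of the erythroid markers 6 of 7, were at 0 in every library, and neither list summed to more than 3.16 CPM in any of them. Controls 1 and 4 lay farther from their group mean than the other 6 libraries. Their root mean square deviations over all tested genes were 0.550 and 0.536 on the log2 scale, against 0.297 to 0.392 elsewhere, and results are also given without them where a call turned on them.

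Of the 86 genes, 77 passed the filter on low counts and were tested. Most of the other 9 were tissue-type forms of complex IV subunits. Cox7b2, Cox8b and Cox8c were at 0 counts in all 8 libraries, and a count of 0 allowed up to 0.298 to 0.510 CPM per library (3 counts, for counting error only). Over the 8 libraries together, Ndufs5 gave 3 counts, all in knockout 1, Cox4i2 4, Ndufa4l2 6, Cox7a1 15, Atp5s 24 and Cox6b2 34. Ndufs5 encodes a complex I subunit that is needed in all tissues, and 1 other annotated gene is near identical to it at the 3′ end (at least 95% over at least 100 bases of the last 300). A low level and reads lost to that copy cannot be told apart for it. None of the 13 subunit genes in mitochondrial DNA was among the symbols analysed here.

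Among the tested genes the mean control level ran from 1.60 CPM for Sdhd to 1506 CPM for Atp5l, with a median of 128 CPM. The median control level was 99.9 CPM for complex I, 79.2 CPM for complex II, 161 CPM for complex III, 150 CPM for complex IV and 288 CPM for complex V. Sdhd, the small membrane anchor of complex II, gave between 0 and 23 counts per library, far below Sdha, Sdhb and Sdhc, with which it forms the complex. Whether this is the level of its transcript or reads were lost in counting was not tested.

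Most of these transcripts stood near their control level in the knockout, and 4 of them were higher. The groups differ in Jagn1 and in Mb1-Cre, whose parts cannot be told apart. The muscle-type subunit gene Cox6a2 was 7.51-fold higher in the knockout, and smaller rises were found for Uqcrq of complex III, for Cox7a2l, a factor that joins complexes III and IV, and for Atp5g1 of the ATP synthase. None passed the test in the lower direction. These counts come from edgeR's quasi-likelihood test on all 9904 tested genes, two-sided, with Benjamini-Hochberg adjustment and a threshold of 0.05, at which 5.74% of all tested genes were called, 2.54% higher and 3.19% lower. At an unadjusted p under 0.05, 6 of the 77 were higher and 5 lower, where 8.3% and 9.72% of all tested genes were. In 6 genes every knockout library lay above every control library and in 5 every knockout library lay below, against 6.45% and 6.64% of all tested genes. In both directions together, these counts are near the shares of all tested genes.

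The fitted changes of the 77 genes were small. Their median log2 fold change, knockout over control, was -0.07, against -0.01 over all tested genes, and it ran from -0.13 to 0.02 when single libraries were left out, with the positive value reached without control 4. The median size of the change, whatever its sign, was 0.18 for these genes and 0.27 over all genes. Of the 73 genes not called, 37 had a 95% interval that lay wholly within a 1.5-fold change in either direction and 67 within a 2-fold change. A change beyond those bounds was therefore outside the interval for these genes, and the other 6 were measured less well than that.

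**Figure D1:**
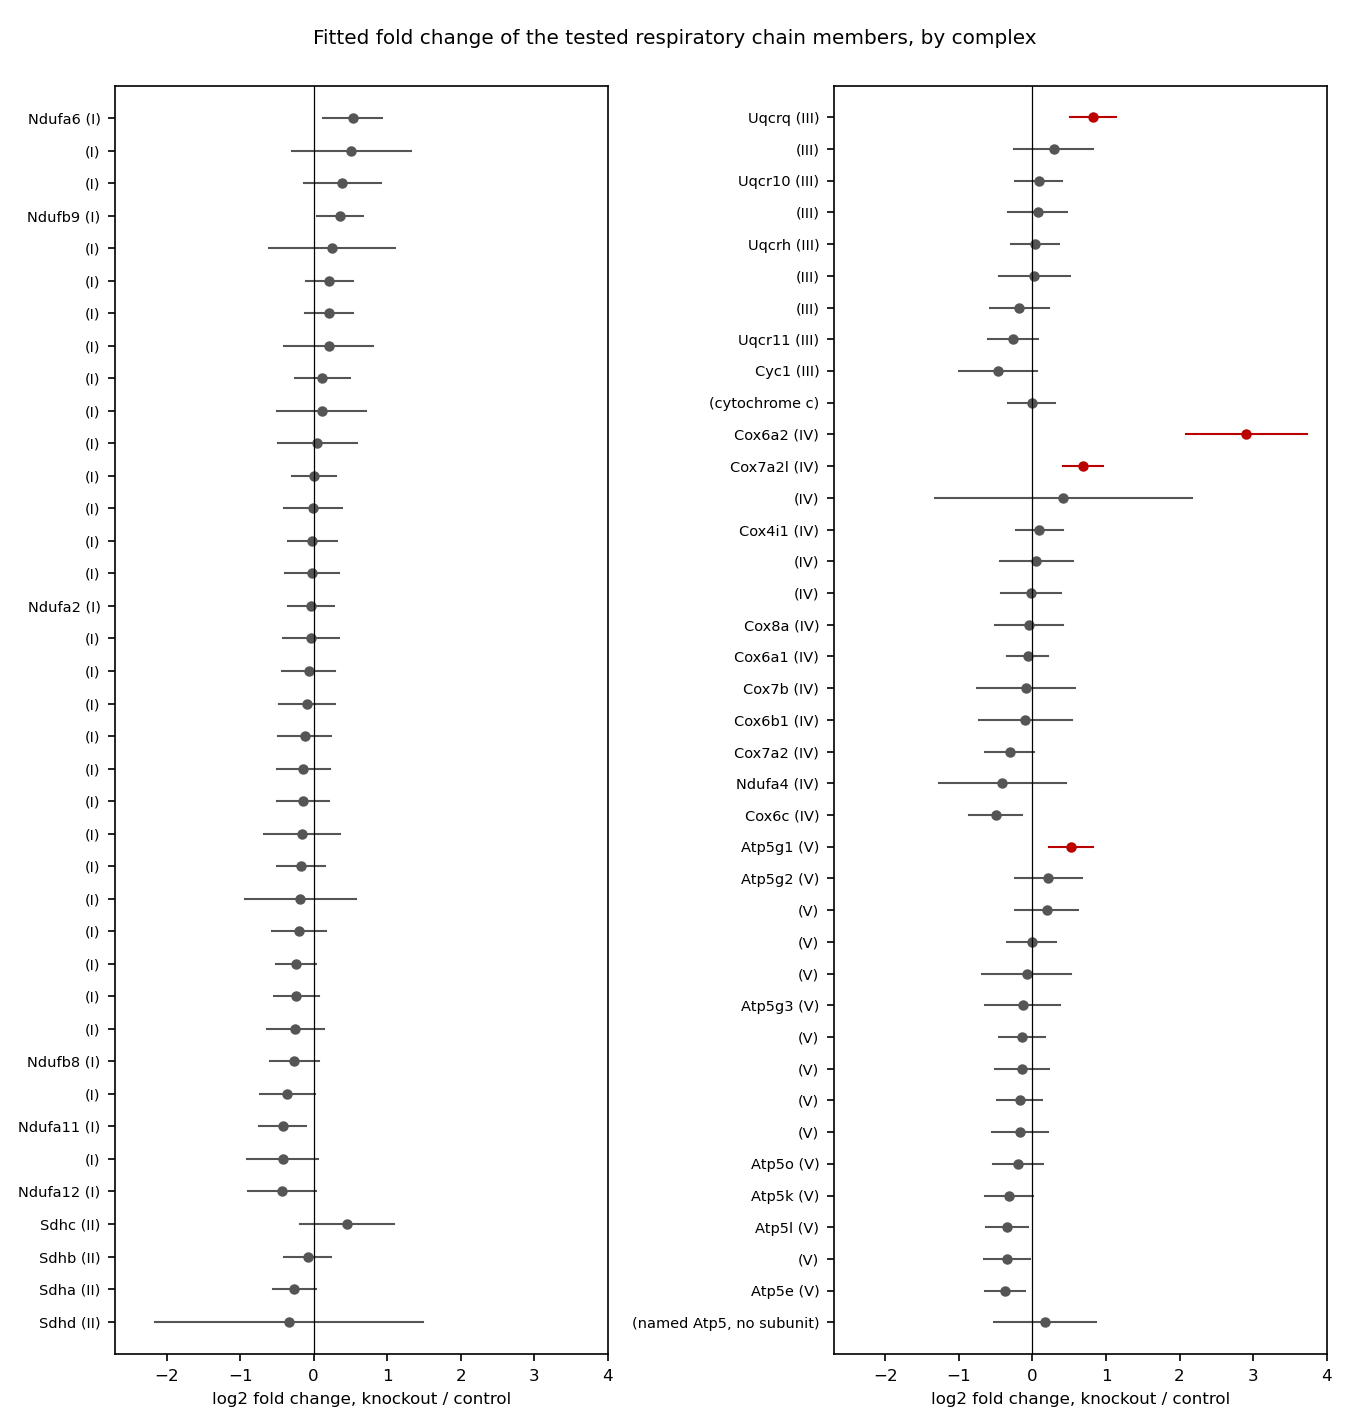
Fitted log2 fold change (knockout over control) of the 77 tested genes with 95% intervals, grouped by complex (in brackets) and sorted within it, with labels for the genes of the naming rule. The 4 genes called at an adjusted p under 0.05, in red, are Uqcrq, Cox6a2, Cox7a2l and Atp5g1, and the widest interval is that of Sdhd.

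Other fits added calls to these 4, and Atp5g1 was not called in 6 of 19 alternative fits. DESeq2, which called 9.02% of all genes, called the same 4 higher and Atp5e lower. With limma-voom and sample weights, which called 10.8% of all genes, 7 were higher and 2 lower. Without controls 1 and 4, where 8.76% of all genes were called, 8 were higher and 2 lower: Ndufa1, Ndufa6, Sdhc and Cox7c joined the 4 genes, and Ndufa11 and Cox6c were called lower. The values of each of these genes are given with its complex.

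Complex I, the NADH dehydrogenase, is the largest complex of the chain, and none of its 34 tested genes was called in either direction by edgeR (unadjusted p under 0.05 in 2 higher and 1 lower). DESeq2 also called none, and limma-voom called 2 higher and 1 lower. The median log2 fold change was -0.05, with 11 fitted values above 0 and 23 below. The genes for the catalytic core, which binds NADH and carries the flavin and iron-sulfur centres, had values on both sides of 0. Ndufv1, the NADH-binding subunit, stood at 44.1, 51.9, 53.1 and 46.7 CPM in controls 1 to 4 and at 56.9, 56.4, 53.6 and 59.4 CPM in knockouts 1 to 4. Every knockout library was above every control library, but the closest pair, control 3 and knockout 3, differed by little, and the log2 fold change was 0.21 ± 0.15 (SE, adjusted p = 0.519). Ndufs1, the largest subunit of the complex, was at -0.42 ± 0.23 (adjusted p = 0.36), with control 1 above the other 7 libraries at 55.5 CPM. Ndufs8, which carries iron-sulfur centres, was at -0.36 ± 0.17 (adjusted p = 0.299).

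The accessory subunits, which surround that core, held the largest fitted changes of complex I. Ndufa6, a subunit of the LYR-motif family that binds the mitochondrial acyl carrier protein, was at 96.9, 128, 164 and 199 CPM in controls 1 to 4 and at 206, 214, 208 and 224 CPM in knockouts 1 to 4. The groups did not overlap and the 4 knockout libraries lay close together, while control 1 lay far below control 4. Its log2 fold change was 0.53 ± 0.19 (adjusted p = 0.126), and it was 0.70 (adjusted p = 0.0108) without control 4, where 8.88% of all genes were called. Ndufb9, of the same family, was at 0.36 ± 0.15 (adjusted p = 0.191).

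Ndufa1, a small membrane-arm subunit encoded on the X chromosome, was at 34.8, 54.0, 92.3 and 178 CPM in controls 1 to 4 and at 114, 133, 145 and 122 CPM in knockouts 1 to 4. Control 4 was the highest of all 8 libraries and the other 3 controls were below every knockout. Its log2 fold change of 0.51 ± 0.37 (adjusted p = 0.527) became 1.08 (adjusted p = 0.00787) without control 4. In the lower direction, Ndufa11, a membrane subunit that helps to hold the complex together, was at 333, 327, 297 and 245 CPM in controls 1 to 4 and at 268, 221, 192 and 219 CPM in knockouts 1 to 4. Knockout 1 was above control 4 and the other 3 knockouts were below every control. The log2 fold change was -0.42 ± 0.15 (adjusted p = 0.133), and -0.52 (adjusted p = 0.0284) without control 4.

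Ndufa12 had the lowest fitted value of the complex, -0.43 ± 0.22 (adjusted p = 0.325), with knockout 4 at 50.3 CPM and the other 7 libraries between 87.6 and 130 CPM. Ndufa2, the most abundant complex I transcript at a mean of 706 CPM, was at -0.04 ± 0.15. Ndufb8, a membrane-arm subunit often used as a protein marker of assembled complex I, was at -0.26 ± 0.16 (adjusted p = 0.414). Ndufs6 and Ndufc1 were lower in every knockout library than in every control library, with log2 fold changes of -0.24 ± 0.13 and -0.24 ± 0.14, and neither passed the test (adjusted p = 0.36 and 0.423).

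Complex II, succinate dehydrogenase, is shared by the chain and the citric acid cycle and has no subunit encoded in mitochondrial DNA. None of its 4 genes was called by edgeR, and none had an unadjusted p under 0.05; DESeq2 called none and limma-voom 1 higher. Sdha, the flavoprotein, was at 117, 107, 119 and 110 CPM in controls 1 to 4 and at 94.3, 93.3, 107 and 83.8 CPM in knockouts 1 to 4. All 4 knockout values were below all 4 control values, and the log2 fold change of -0.26 ± 0.14 had an adjusted p of 0.35. Sdhb, the iron-sulfur subunit, was at -0.08 ± 0.15, and Sdhd at -0.34 ± 0.86, or 0.23 without control 3.

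Sdhc, a membrane anchor that helps to bind heme, was at 28.2, 34.3, 32.6 and 84.9 CPM in controls 1 to 4 and at 53.6, 64.7, 53.9 and 75.6 CPM in knockouts 1 to 4. Control 4 was the highest of the 8 libraries and the other 3 controls were the lowest. With all libraries the log2 fold change was 0.45 ± 0.30 (adjusted p = 0.469). Without control 4 it was 0.96 (adjusted p = 0.00276), and without controls 1 and 4 it was 0.89 (adjusted p = 0.00314). The difference for Sdhc passed the test in 3 of 19 alternative fits, the third being limma-voom (0.72, adjusted p = 0.0217).

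Of the 9 tested genes of complex III, which carries electrons from coenzyme Q to cytochrome c, 1 was called higher. This was Uqcrq, which encodes a small subunit that contacts cytochrome b. It stood at 225, 304, 309 and 357 CPM in controls 1 to 4 and at 549, 546, 502 and 517 CPM in knockouts 1 to 4. The knockout libraries lay close together and all were above the highest control. The control libraries averaged 299 ± 54.4 CPM and the knockout libraries 528 ± 22.9 CPM (SD, n = 4 each). The log2 fold change came to 0.82 ± 0.15 (SE; adjusted p = 0.00348 in edgeR's test). It passed in each of 19 alternative fits, with log2 fold changes of 0.71 to 0.91 and adjusted p of 1.954e-05 to 0.0206. Uqcrq lies on chromosome 11 from 53427922 to 53430831 on the minus strand (GRCm38, GENCODE M21), and no other annotated gene was near identical to its 3′ end.

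No other complex III gene was called. Uqcrh, the hinge protein that docks cytochrome c1 and the most abundant transcript of the complex, was at 1012, 798, 1030 and 1074 CPM in controls 1 to 4 and at 1019, 1096, 1132 and 761 CPM in knockouts 1 to 4, with a log2 fold change of 0.03 ± 0.15. Uqcrc1 and Uqcrc2, the large core subunits on the matrix side, were at 0.03 ± 0.23 and 0.07 ± 0.19. The small subunit genes Uqcr10 and Uqcr11 were at 0.08 ± 0.15 and -0.26 ± 0.16. Uqcrfs1, the Rieske iron-sulfur protein, was at 0.29 ± 0.25 (adjusted p = 0.615). Cyc1, which encodes cytochrome c1 and had the lowest fitted value of the complex, was at -0.46 ± 0.25 (adjusted p = 0.357). Cycs, which encodes cytochrome c itself, was at 79.5 to 112 CPM in the controls and at 86.1 to 99.4 CPM in the knockouts, with a log2 fold change of -0.01 ± 0.15.

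Complex IV, cytochrome c oxidase, held 2 of the 4 called genes among 13 tested, Cox6a2 and Cox7a2l. Cox6a2 encodes the heart- and skeletal-muscle-type form of subunit VIa, a small membrane subunit through which adenine nucleotides regulate the oxidase, and Cox6a1 encodes the widely expressed form. Cox6a2 was singled out with earlier results of these data known, so that its values stand here as a description. It gave 117, 102, 290 and 83 counts in controls 1 to 4 and 1126, 1301, 856 and 1306 counts in knockouts 1 to 4. In CPM, the controls were at 16.4, 16.4, 40.4 and 8.08 and the knockouts at 151, 187, 112 and 157. Even control 3, the highest of the controls, was below every knockout, and the groups were at 20.3 ± 13.9 and 152 ± 30.7 CPM (SD, n = 4 each). The log2 fold change was 2.91 ± 0.38 (SE; adjusted p = 0.000533 in edgeR's test). It passed in each of 19 alternative fits, with log2 fold changes from 2.41 without controls 1 and 4 to 3.49 without control 3, and adjusted p from 2.076e-07 to 0.0224.

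**Figure D2:**
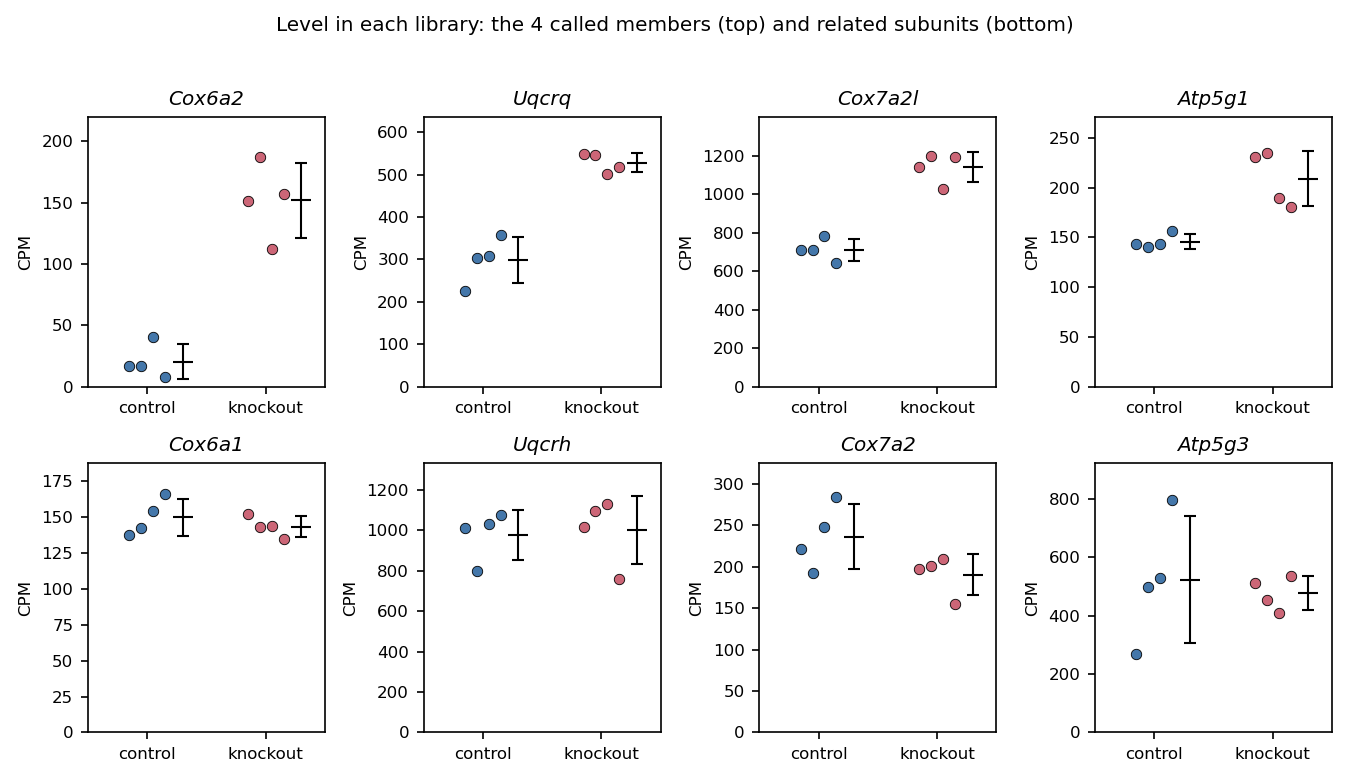
Level in each library (circles, in CPM) with the mean and SD of each group of 4 beside them, for the 4 called genes above and a related subunit gene for each below. In the upper panels every knockout library lies above every control library, while in the lower panels the groups overlap.

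The partner gene was not called in either direction. Cox6a1 was at 137, 142, 154 and 166 CPM in controls 1 to 4 and at 152, 143, 144 and 134 CPM in knockouts 1 to 4. The groups overlapped, and the log2 fold change was -0.06 ± 0.13 (adjusted p = 0.864), with a 95% interval of -0.35 to 0.22. Both transcripts together reached 170 ± 18.2 CPM in control libraries and 295 ± 30.7 CPM in knockout libraries (SD, n = 4 each). Cox6a2 made up 10.7%, 10.4%, 20.8% and 4.65% of their counts in controls 1 to 4 and 49.9%, 56.7%, 43.8% and 53.9% in knockouts 1 to 4. In the knockout libraries the counts of the muscle-type form were thus at about those of the widely expressed form. These are levels of RNA, and the protein was not measured.

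**Figure D3:**
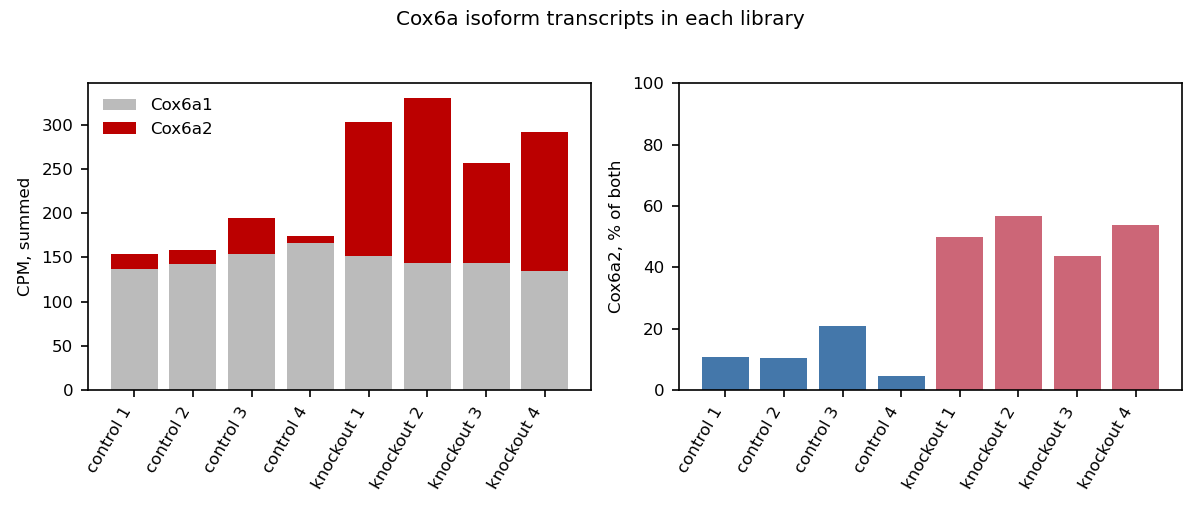
Left, CPM of Cox6a1 (grey) and Cox6a2 (red), stacked, in each library; right, Cox6a2 as a percentage of the counts of both genes. The grey part stays between 134 and 166 CPM in all 8 libraries, while the share of Cox6a2 is 4.65% to 20.8% in the controls and 43.8% to 56.7% in the knockouts.

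Cox6a2 lies on chromosome 7 from 128205435 to 128206387 on the minus strand (GRCm38, GENCODE M21) and has 3 exons, of which 70 bases overlap exons of Itgad on the opposite strand. No source used here gives whether the authors' counting used strand. The longest run of bases that the Cox6a1 and Cox6a2 transcripts share is 12, and 8 within their last 300 bases, so reads of usual length from the 2 genes differ in sequence. Cox6a1 has 1 other annotated gene near identical to its 3′ end, and Cox6a2 has none. Reads of Cox6a1 split with that copy or dropped could raise the share of Cox6a2 given above, and this was not tested.

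The other tissue-type forms stayed at or near 0. Cox7a1 gave between 0 and 7 counts per library, and Cox8b, Cox7b2 and Cox8c gave none. Cox4i2, a lung form of subunit IV that responds to oxygen, gave 3 counts in control 4, 1 in knockout 2 and 0 elsewhere, and Cox6b2, a testis form, 0 to 7 counts. Of 17 heart or skeletal muscle markers in the tables, among them Cox7a1 and Cox8b, 11 were at 0 in all libraries, including myoglobin (Mb), Ckmt2, Actn2 and Myh1. The summed muscle list was at 1.97 to 7.94 CPM in the controls and 2.15 to 3.25 CPM in the knockouts. These are low levels, and which cells gave the Cox6a2 transcript was not tested. Cox6a2 is also known from plasmacytoid dendritic cells. Siglech, a defining marker of these cells, gave 3 to 12 counts in the controls and 4 to 19 in the knockouts, and Klk1 and Cd209d were at 0 in all libraries. The whole list of 10 dendritic cell markers summed to 433 to 519 CPM in the controls and 480 to 535 CPM in the knockouts, most of it from Tcf4 and Xcr1. Bst2, another marker of that list, was called lower in the knockout (-0.90, adjusted p = 0.012), while Siglech and Flt3 were at 0.61 and 0.91 and were not called. In a bulk sample, more cells of a type and more RNA per cell cannot be told apart.

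Cox7a2l, also known as SCAF1, is related to the Cox7a subunits and joins complex III to complex IV in supercomplexes. The strain used here, C57BL/6J, carries a shortened form of this gene, and whether that form joins the complexes in these cells was not measured. The Cox7a2l transcript was the most abundant of complex IV. It was at 707, 712, 781 and 640 CPM in controls 1 to 4 and at 1142, 1200, 1029 and 1195 CPM in knockouts 1 to 4. The lowest knockout was well above the highest control, a log2 fold change of 0.68 ± 0.13 (SE; adjusted p = 0.00433). The call held in each of 19 alternative fits, with log2 fold changes of 0.62 to 0.74 and adjusted p of 9.789e-06 to 0.0289. Cox7a2, the widely expressed form, was at -0.31 ± 0.16 (adjusted p = 0.31). Cox7a2l made up 75.0% ± 4.00 of the counts of Cox7a1, Cox7a2 and Cox7a2l in the control and 85.6% ± 2.22 in the knockout (SD, n = 4 each).

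The remaining subunits of complex IV were not called by edgeR. Cox6c was at 429, 551, 670 and 778 CPM in controls 1 to 4 and at 481, 417, 402 and 419 CPM in knockouts 1 to 4. Control 1 fell among the knockouts and the other 3 controls lay above them all. The log2 fold change was -0.50 ± 0.17 (adjusted p = 0.11), and it was -0.63 (adjusted p = 0.00528) without control 1. Cox4i1 and Cox5a, which encode subunits of the regulatory and matrix-facing parts of the oxidase, were at 0.10 ± 0.15 and -0.02 ± 0.19, Cox5b at 0.05 ± 0.23 and Cox8a at -0.05 ± 0.22.

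For several small subunits the controls disagreed too much to show a difference. Cox7c was at 5.62, 16.1, 41.6 and 132 CPM in controls 1 to 4 and at 53.6, 64.1, 76.2 and 70.7 CPM in knockouts 1 to 4. All knockouts fell between control 3 and control 4, and the log2 fold change of 0.42 ± 0.76 had a 95% interval of -1.32 to 2.16. Without controls 1 and 4 the value was 1.19 (adjusted p = 0.0155). Ndufa4, a subunit of complex IV despite its name, was at 15.6, 24.5, 38.3 and 83.5 CPM in controls 1 to 4 and at 24.3 to 38.2 CPM in the knockouts. Cox6b1 and Cox7b were likewise lowest in control 1 and highest in control 4, with log2 fold changes of -0.10 ± 0.29 and -0.09 ± 0.31. Without control 4 the fitted value changed sign for Ndufa4, Cox6b1, Cox7b, Cox8a and Atp5g3, to 0.22, 0.19, 0.31, 0.20 and 0.13.

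Many genes of the chain were higher in control 4 than in control 1, with a median difference of 0.50 (log2). Others were lower in control 4, among them the abundant Ndufa2 and Atp5k. On the scale of log2(CPM + 0.5), 25 of the 77 tested genes were at least 2-fold higher in control 4 than in control 1 and 0 were at least 2-fold lower, Cox6a2 and Atp5sl coming closest to that at -0.98 and -0.98. Over all 9904 tested genes 1550 were higher and 1179 lower by that measure. The median gene of the chain deviated from its mean over the 8 libraries by -0.26 in control 1 and 0.28 in control 4 (log2), and by -0.07 to 0.07 in the knockouts. In complex IV these medians were -0.76 and 0.57. Across the tested genes, the deviation in control 1 rose with the GC content of the last 300 bases of the transcript (Spearman's rho 0.35 over 77 genes) and that in control 4 fell with it (-0.39), against 0.06 and -0.11 over 9523 genes. Control 2 had 0.28 and 0.12 and knockout 1 had -0.25 and -0.06. The log2 fold change had a rho of -0.04 in both sets. These relations are across genes of single libraries, which share depth and composition. What set these libraries apart was not tested.

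**Figure D4:**
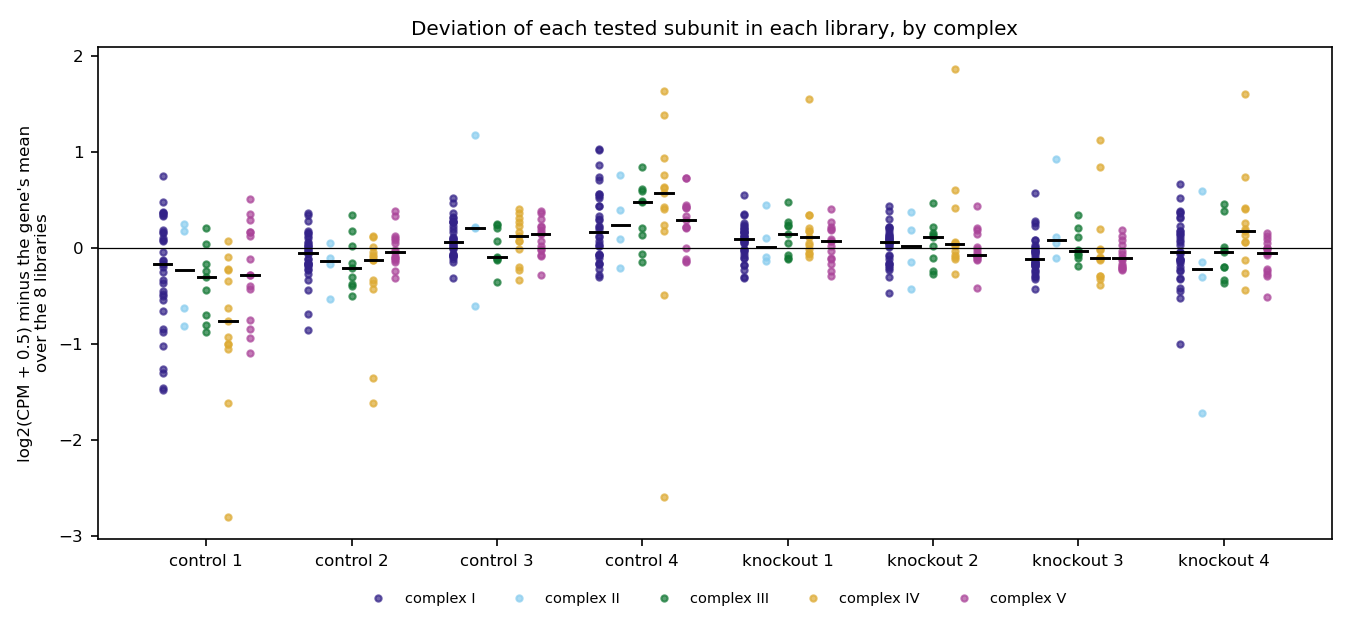
Deviation of each tested subunit gene from its own mean over the 8 libraries, as log2(CPM + 0.5), in each library and by complex; black bars are medians. The bars of all 5 complexes lie below 0 in control 1 and above 0 in control 4, furthest for complex IV at -0.76 and 0.57.

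Complex V, the ATP synthase, had 1 gene called higher, while 12 of its 15 fitted values lay below 0 and the median log2 fold change was -0.14. None was called lower by edgeR, 3 had an unadjusted p under 0.05 in that direction, and DESeq2 called Atp5e lower. The summed level of the 15 genes was at 5495, 5390, 6086 and 6208 CPM in controls 1 to 4 and at 5300, 5054, 4869 and 4923 CPM in knockouts 1 to 4. Every knockout sum was below every control sum, and the knockout mean of 5036 ± 192 CPM was 86.9% of the control mean of 5795 ± 412 CPM (SD, n = 4 each). The sums did not overlap under any of the scalings tried, at 85.1% to 87.2% of the control, nor without controls 1 and 4, at 87.9%. Atp5l gave the largest part of this sum and has 12 other annotated genes near identical to its 3′ end. Without Atp5l the sums overlapped, with the knockout at 89.7% of the control. They also overlapped under each of the other scalings and when any single library other than control 1 or knockout 1 was left out. Control 1 had the lowest control sum (4001 CPM) and knockout 1 the highest knockout sum (4118 CPM). Leaving out either one therefore removed the overlap (87.9% and 87.8%), as did leaving out controls 1 and 4 (90.8%).

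Within the rotary motor, Atp5a1 and Atp5b encode the catalytic head. Atp5a1 was at 497, 425, 395 and 450 CPM in controls 1 to 4 and at 394, 363, 356 and 273 CPM in knockouts 1 to 4. Knockout 1 lay just below control 3, the lowest control, and the log2 fold change was -0.35 ± 0.14 (adjusted p = 0.207). Atp5b was at -0.17 ± 0.18. Atp5e, a small subunit of the central stalk, was at 287, 274, 291 and 312 CPM in controls 1 to 4 and at 216, 248, 223 and 208 CPM in knockouts 1 to 4. The groups did not overlap, and the log2 fold change was -0.38 ± 0.13 (adjusted p = 0.108), and -0.39 (adjusted p = 0.0368) by DESeq2. Atp5l, Atp5k and Atp5o, which belong to the membrane part and the outer stalk, were the 3 most abundant transcripts of the complex, with log2 fold changes of -0.34 ± 0.13, -0.32 ± 0.15 and -0.20 ± 0.16 and adjusted p of 0.179, 0.28 and 0.579.

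Atp5g1, Atp5g2 and Atp5g3 encode precursors that are cut to the same mature c subunit, the ring that turns in the membrane. Atp5g1 was at 143, 140, 143 and 157 CPM in controls 1 to 4 and at 231, 235, 190 and 181 CPM in knockouts 1 to 4. The control libraries were nearly equal and all knockouts lay above them. Its log2 fold change was 0.52 ± 0.14 (SE; adjusted p = 0.0397). Atp5g1 passed in 13 of 19 alternative fits, including without controls 1 and 4 (adjusted p = 0.0148). It did not pass without knockout 1, 2 or 3 or without control 2 or 3 (adjusted p = 0.0743 to 0.175), each of which leaves 7 libraries. Nor did it pass in edgeR's test with a replicate block (adjusted p = 0.0896). Atp5g2 was at 0.22 ± 0.21 and Atp5g3 at -0.13 ± 0.24. The 3 genes together summed to 799 ± 267 CPM in control libraries and 837 ± 70.0 CPM in knockout libraries (SD, n = 4 each), so the supply of c subunit transcripts overlapped between the groups. The share of Atp5g1 among them was 13.8% to 29.8% in the controls and 20.9% to 27.9% in the knockouts. Atp5g1 has 5 other annotated genes near identical to the 3′ end of its transcripts, so that its reads could be split with them.

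**Figure D5:**
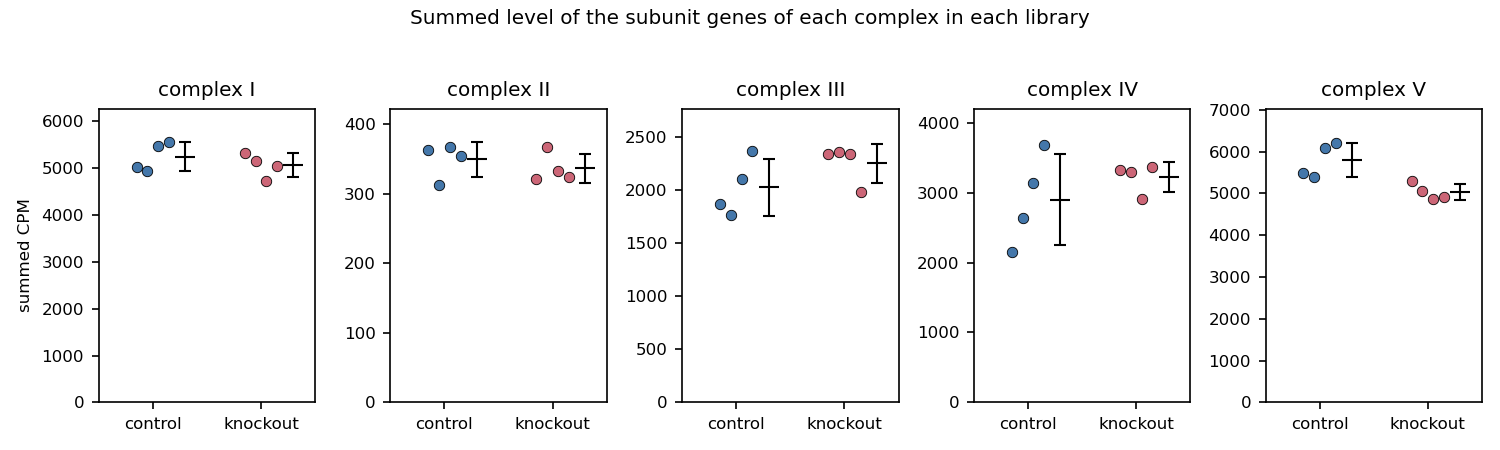
Summed CPM of the subunit genes of each complex in each library (circles), with the mean and SD of each group of 4. The sums of complex V lie at 4869 to 5300 CPM in the knockouts and at 5390 to 6208 CPM in the controls, while those of the other 4 complexes overlap.

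Beside the 86.9% of complex V, the knockout mean of the summed level was 96.5% of the control mean for complex I, 96.4% for complex II, 111% for complex III and 111% for complex IV, and the groups overlapped in each of these 4. For complex IV it was 102% without control 1 and 121% without control 4, and for complex III 117% without controls 1 and 4. The called genes are part of these sums. Mean CPM in control and knockout were 299 and 528 for Uqcrq in complex III. In complex IV they were 710 and 1141 for Cox7a2l and 20.3 and 152 for Cox6a2. The knockout sum was higher by 229 CPM in complex III and 323 CPM in complex IV. The median log2 fold changes of complexes III and IV were 0.03 and -0.05, so their higher sums do not describe most of their genes. All 86 genes together summed to 16418 ± 1612 CPM in control libraries and 16017 ± 630 CPM in knockout libraries (SD, n = 4 each). Without the 4 called genes these sums were 15243 ± 1576 and 13986 ± 526 CPM. The knockout mean was then 91.8% of the control mean, and the groups overlapped. The knockout libraries were also more alike than the controls. The median coefficient of variation of the tested genes was 10.7% in the knockout and 23.2% in the control, against 17.5% and 27.4% over all tested genes.

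Of the 77 tested genes, 26 have another annotated gene that is at least 95% identical over at least 100 bases within the last 300 bases of their transcripts, most of them with 1 such copy. The values of these genes, which include Atp5g1, Atp5l, Cox6a1, Cox6c and Cox7c, are uncertain to the extent that reads were split with the copies or dropped. Uqcrq, Cox6a2 and Cox7a2l have none.

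Genes that build, feed or regulate the chain were read in the same fit. Of 47 tested assembly factors, which insert cofactors and join subunits, none was called by edgeR (unadjusted p under 0.05 in 4 higher and 1 lower; DESeq2 called 0, limma-voom 2 higher and 1 lower). Their median log2 fold change was 0.12. Sdhaf1, which helps to insert the iron-sulfur centres of complex II, was at 50.0, 51.2, 44.7 and 42.8 CPM in controls 1 to 4 and at 73.4, 75.3, 56.8 and 57.8 CPM in knockouts 1 to 4. The groups did not overlap, and the log2 fold change was 0.48 ± 0.16 (adjusted p = 0.11). Uqcc2, an assembly factor of complex III, was at -0.52 ± 0.22 (adjusted p = 0.216). Without controls 1 and 4, 4 of 49 assembly factors were called higher and none lower. In that fit 438 of all 10285 tested genes were called higher, and 8.76% were called in either direction.

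None of the 11 tested genes of coenzyme Q synthesis was called by edgeR, DESeq2 or limma-voom, and none had an unadjusted p under 0.05; 9 of 11 fitted values lay above 0, with a median of 0.22. Coq7, a hydroxylase of the pathway, was at -0.35 ± 0.20 and Adck4, a kinase-like protein needed for it, at 0.48 ± 0.38. Of the 5 tested genes of other enzymes that pass electrons to coenzyme Q, none was called by these 3 tools, and 1 had an unadjusted p under 0.05, in limma-voom; the median was -0.17. Etfa and Etfb, the electron-transferring flavoprotein of fatty acid oxidation, were at -0.61 ± 0.37 and -0.17 ± 0.17, and Etfa was at 0.23 without controls 1 and 4. Of 17 tested regulators of these genes and of mitochondrial DNA, none was called by edgeR, and 1 had an unadjusted p under 0.05. This was Ppargc1b, a coactivator that raises the transcription of respiratory genes. It was at 8.01, 6.61, 2.09 and 6.52 CPM in controls 1 to 4 and at 2.55, 2.44, 1.31 and 2.40 CPM in knockouts 1 to 4. Control 3 fell among the knockouts and the other 3 controls lay above them. The log2 fold change was -1.41 ± 0.47 (adjusted p = 0.105), and DESeq2 called it (adjusted p = 0.0392). Limma-voom called none of the 17 (unadjusted p under 0.05 in 1 higher and 1 lower). Ssbp1, which coats single-stranded mitochondrial DNA, was at 0.35 ± 0.21 (adjusted p = 0.42).

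Of 4 tested subunit genes outside the naming rule, none was called by edgeR, DESeq2 or limma-voom, each with 1 unadjusted p under 0.05, in the lower direction. Atpif1, the inhibitor that stops the ATP synthase from running backwards, was lower in every knockout library than in every control library, at 73.1 ± 5.78 against 94.1 ± 8.86 CPM (SD, n = 4 each), with a log2 fold change of -0.36 ± 0.14 (adjusted p = 0.183). Usmg5, a small membrane subunit of the ATP synthase, was at 0.23 ± 0.43, with control 4 at 41.3 CPM and the other 3 controls at 5.62 to 17.5 CPM. It was at 0.91 (adjusted p = 0.0809) without control 4 and at -0.08 without control 1.

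Promoter sequences from RefSeq (GRCm38.p6), 250 bases before to 50 after the start, were found for 70 of the 86 genes and searched on both strands for 6 motifs chosen for this gene group. The NRF1 core GCGCATGC was in 11 of 70 (15.7%), against 2.80% of all 27025 promoters and 6.28% of the 7645 promoters of tested genes. The YY1 core AAGATGGCG was in 7 (10.0%), against 1.49% and 3.90%. The ETS core CCGGAAG, which the factor GABPA binds, was in 15 (21.4%), against 9.12% and 21.2%, so that its share was near that of other tested genes. CCAAT was in 32 (45.7%), against 37.9% and 39.8%, and TATAAA in 7 (10.0%), against 14.2% and 6.36%. The composite element TGATGNAA, which ATF4 and C/EBP factors bind, was in 0 of 70, against 4.06% and 2.26%. A match is a description of these letters in the window and not of binding.

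Upstream sequences are shown for the called genes Cox7a2l and Atp5g1, which the table holds, and for Cox6a1, the partner of Cox6a2. Each is the part of the window that holds no annotated exon, 5′ to 3′ on the strand of the gene, all minus here, with motif matches in capitals. That of Cox6a1 (chr5:115348982-115349129) holds the NRF1 core and CCAAT, that of Atp5g1 (chr11:96075671-96075881) holds 5 matches of CCAAT counting both strands, and that of Cox7a2l (chr17:83514334-83514583), which lies within the annotated span of the gene, holds no match.
Cox6a1: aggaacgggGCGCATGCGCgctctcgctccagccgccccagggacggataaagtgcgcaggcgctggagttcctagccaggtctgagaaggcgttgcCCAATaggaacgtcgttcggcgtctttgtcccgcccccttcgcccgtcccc
Atp5g1: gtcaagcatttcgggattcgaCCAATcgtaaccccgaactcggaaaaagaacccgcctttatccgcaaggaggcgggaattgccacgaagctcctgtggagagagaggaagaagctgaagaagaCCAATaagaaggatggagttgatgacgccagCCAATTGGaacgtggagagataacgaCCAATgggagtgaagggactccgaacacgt
Cox7a2l: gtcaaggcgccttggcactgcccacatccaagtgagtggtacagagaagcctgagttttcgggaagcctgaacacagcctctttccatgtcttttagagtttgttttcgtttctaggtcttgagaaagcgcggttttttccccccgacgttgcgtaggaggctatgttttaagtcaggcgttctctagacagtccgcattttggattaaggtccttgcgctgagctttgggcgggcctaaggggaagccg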

How the data were processed

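RNA of 4 Jagn1 knockout and 4 control plasmablast samples was read with QuantSeq 3′ mRNA-Seq (FWD) libraries made from 500 ng of total RNA, per the labels' protocols. The deposited tables hold raw read counts per gene symbol. The submitters' processing notes name the mm10 build with TopHat2 2.1.1, BWA 0.7.12, HTSeq 0.6.1 and SAMtools 1.3.1. What each tool did, which annotation was counted and whether strand was used: not given in the sources used here. Molecular identifiers are not mentioned, so counts may include PCR copies.

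All 24413 symbols entered edgeR 4.0.16 (R 4.3.3) with filterByExpr (minimum count 10, total 15; 9904 genes kept), TMM scaling and the robust quasi-likelihood F-test, with group as the only term. The biological coefficient of variation was 0.274. SE was taken as the size of the log2 fold change over the root of the F statistic. CPM use TMM-scaled totals. Replicates of a group differed beyond sampling noise in every pair (chi-square per degree of freedom 6.60 to 94.2 over genes with at least 20 pooled counts). The steps were tested on simulated data. Alternatives were DESeq2 1.42.0, limma-voom (limma 3.58.1) with sample weights, other scalings and filters, thinned counts, no robust estimation, a replicate block, and leaving out libraries.

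The genes, lists and tests were chosen with earlier results of these data known. Named are the called genes, the tissue-type isoforms, the most abundant, most extreme and smallest-p genes of each complex, and the called or 2 smallest-p genes of each further list. Further genes named in the text (Ndufv1, Ndufs1, Ndufs6, Ndufs8, Ndufc1, Ndufa1, Uqcrc1, Uqcrc2, Uqcrfs1, Cycs, Cox5a, Cox5b, Cox7c, Atp5a1, Atp5b) were chosen for their role or their values, after the values were seen. 1 gene is not reported here. Positions are from GENCODE M21, which holds all 86 genes.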

Additional observations from a re-analysis of the deposited data

Results flagged for a closer look

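In 66 groups of 4 libraries looked at, 2 genes had a library that stood apart from the other 3 of its group by Dixon's test. Chance gives about 1 in 20 groups, so 2 of 66 is no more than that share. Sdhc, the heme-binding anchor of complex II, was at 84.9 CPM in control 4, against 28.2 to 34.3 CPM in the other 3 controls. Sdhb, the iron-sulfur subunit of the same complex, was at 209 CPM in knockout 2, against 165 to 172 CPM in the other 3 knockouts.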

How the results depend on the processing

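Cox6a2, Uqcrq and Cox7a2l were called higher in all 19 alternatives, and Atp5g1 in 13 of 19. With limma-voom 7 genes of the chain were higher and 2 lower, with controls 1 and 4 left out 8 and 2, and with DESeq2 1 was lower. Leaving out single libraries gave 3 to 7 higher and 0 to 1 lower. Over all genes, 858 were called with DESeq2, 1070 with limma-voom, 901 without controls 1 and 4, and 270 to 892 without single libraries, against 568. The other scalings, filters and thinning left 4 higher and 0 lower. With a replicate block in edgeR's test 3 were higher, and Atp5g1 was not called (adjusted p = 0.0896). The labels do not say whether equal numbers mark a shared litter or day. Same-numbered libraries correlated at -0.004 to 0.067, and 1 of 4 controls correlated best with its own number. Weak correlation in so few pairs cannot exclude pairing, so whether the samples were paired is not known here. A planned comparison of isoform proteins was not run. Sdhd, with 0 to 23 counts per library, is limited by its low counts.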
